A study of Caenorhabditis elegans with 12 samples.

Results

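Food-restricted sek-1(km4) mutants were compared with food-restricted wild-type N2 worms, with 3 libraries on each side, 6 of the 12 libraries of the series. SEK-1 is a MAP kinase kinase, and the km4 strain carries a deletion in its gene. The compared libraries were chosen by genotype and diet alone, and all 6 were kept. The comparison asks what loss of SEK-1 changes in worms on little food.

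The mutants on dietary restriction (DR) and the N2 worms on DR differed, per the labels, only in strain. Both were grown at 20 °C on OP50 bacteria from a hypochlorite-synchronised start. As L4 larvae or young adults they went to agar plates with cholesterol, ampicillin, kanamycin, tetracycline, nystatin and 100 mg/L fluorodeoxyuridine (FUdR), which blocks DNA synthesis and so the production of progeny. On adult day 3 they were moved to liquid, 10 to 20 worms per well in 1 ml of growth-arrested OP50 at an optical density of 0.1. They were frozen on adult day 6, and poly(A) RNA of whole animals was sequenced as 50 bp single-end reads. The other 6 libraries came from sek-1(km4) and N2 worms kept the same way at an optical density of 3, called ad libitum (AL). The labels call the replicates biological, but do not say how many worms a library pooled or whether libraries came from separate cultures, so the p-values measure the spread between these libraries. Age in the mutant is chronological, and nothing in the labels reports its brood size or stage of reproduction.

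In C. elegans the p38 cascade runs from the adaptor TIR-1 through the kinases NSY-1, SEK-1 and PMK-1 to the transcription factor ATF-7. In the intestine it sets the basal and pathogen-induced level of secreted immune effectors, such as lysozymes, C-type lectins and proteins with CUB-like domains. In the epidermis and in neurons the same kinases act in wound responses, antimicrobial peptide expression and cell fate choice.

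Total counts were 24422622, 22516184 and 17704397 in the mutant libraries and 23066791, 26893867 and 25414211 in the N2 libraries. Ribosomal RNA took 32.6% to 45% of the mutant counts and 35.3% to 38.1% of the N2 counts, the highest share being in mutant library 3. Levels are given in CPM, counts scaled to a common library size with edgeR's TMM factors, and 3 counts, the limit that a count of 0 allows, correspond to 0.113 to 0.173 CPM by library, for counting error only. Log2 CPM correlated across genes at 0.979 to 0.991 within a genotype and at 0.917 to 0.941 between genotypes, as a description over genes, which are not independent replicates. Reads were found in 21953, 22370 and 21142 genes in the mutant libraries and in 18812, 19660 and 19018 genes in the N2 libraries. These ranges did not overlap, although the N2 libraries were on the whole deeper (exact two-sided permutation test, p = 0.1, the smallest that 3 against 3 allows).

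The sek-1 gene itself, on chromosome X at 7816734 to 7821036 (WBcel235, plus strand, 2054 nt of exon), was counted in every library. It had 23.4, 22.7 and 22.2 CPM in the mutants, against 29.99, 25.2 and 24.8 CPM in N2. All 3 mutant values lay below the N2 values, but with all 6 libraries the difference did not pass the threshold (log2 fold change −0.23 ± 0.12 SE, n = 3 each, edgeR adjusted p = 0.132). It did pass without N2 library 3 (−0.34, edgeR adjusted p = 0.0247). The count covers the whole gene and may include reads from exons that the deletion spares, which was not tested. Neither the allele nor the labelled strain can be checked with this value.

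Restricted sek-1(km4) worms nearly lacked a set of secreted immune effectors. Of 21 genes listed as p38-dependent effectors, 15 had every N2 library above every mutant library. Of all tested genes 70.1% had no overlap between the groups, in either direction. That share does not compare directly, since the 15 are counted in 1 direction and 7 of the 21 were not tested. The filter on low counts kept 14 of the 21. Of these, 11 fell at an adjusted p under 0.05, 2 rose and 1 was not called, where 28.8% of all 13668 tested genes fell and 35.3% rose. The direction of this list is known from earlier work on the pathway and from earlier results on these libraries, so that it is not independent evidence. Of the 14, 7 passed the filter only through N2, and so had to differ. Of the other 7, 4 fell, 2 rose and 1 was not called.

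C17H12.8, which encodes a CUB-like protein, had 0.113, 0.0766 and 0.173 CPM in the mutants and 35.9, 36.7 and 22.02 CPM in N2. Its log2 fold change was −8.04 ± 0.35 (SE, n = 3 each, edgeR adjusted p = 3.992e-06), and the mutant values were at the limit of detection. The CUB-like gene dod-24, named for being downstream of DAF-16, had 0.0754, 0.307 and 0.116 CPM in the mutants and 23.2, 20.1 and 8.69 CPM in N2 (−6.62 ± 0.55, edgeR adjusted p = 4.432e-05). The CUB-like gene C32H11.4, which lies on chromosome IV, as do C17H12.8 and dod-24, had 0.302, 0.0766 and 0.0578 CPM in the mutants and 19.7, 15.9 and 5.99 CPM in N2 (−6.42 ± 0.65, edgeR adjusted p = 1.201e-04). For all 3 genes N2 library 3 was the lowest of its group, yet it stood far above every mutant library. The infection response gene irg-5 was low in both strains, with 0, 0.0383 and 0.116 CPM in the mutants and 1.76, 1.45 and 1.90 CPM in N2, a ratio of summed counts of 0.0253 (95% counting interval 0.00514 to 0.0757). C17H12.8, dod-24, C32H11.4 and irg-5 all passed the filter only through N2 and so had to differ, which makes the p-values no support of their own.

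The lysozyme gene lys-2 had 0.603, 0.498 and 0.866 CPM in the mutants and 36.1, 44.6 and 24.3 CPM in N2 (−5.77 ± 0.31, edgeR adjusted p = 7.864e-06). Another lysozyme gene, lys-8, which is not on the effector list, retained more of its level, with 20.0, 12.9 and 11.1 CPM in the mutants and 109, 111 and 70.8 CPM in N2 (−2.71 ± 0.26, edgeR adjusted p = 1.043e-04). The cation-transporting ATPase gene catp-3 had 0.830, 0.421 and 0.116 CPM in the mutants and 60.7, 52.6 and 27.4 CPM in N2 (−6.56 ± 0.50, edgeR adjusted p = 5.787e-05). Groups did not overlap for any of these genes. The effectors thus differed among themselves in what the mutants kept. C17H12.8, lys-2 and catp-3 were almost absent, while the C-type lectin gene clec-85 was still present at 6.49, 7.20 and 3.23 CPM in the mutants, against 42.8, 43.9 and 31.2 CPM in N2 (−2.78 ± 0.28, edgeR adjusted p = 8.251e-05).

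Other members of the list were different. The C-type lectin gene clec-60 rose, with 62.8, 43.1 and 17.5 CPM in the mutants and 12.5, 15.5 and 10.8 CPM in N2 (1.67 ± 0.44, edgeR adjusted p = 0.014). The predicted gene F19B10.4 also rose (1.59 ± 0.29, edgeR adjusted p = 0.00149). Without N2 library 1, or without N2 library 3, only 1 member of the list was called higher. The infection response gene irg-8 was not called, with 1.66, 1.34 and 0.635 CPM in the mutants and 2.22, 1.81 and 0.548 CPM in N2. The 7 members that were not tested were irg-4, sysm-1, dod-22, C17H12.6, cld-1, F01D5.5 and mul-1, all under 2 CPM in every library. The effector gene sysm-1, also called T24B8.5 and widely used as a p38 reporter, had 0, 2 and 2 counts in the mutants and 16, 7 and 15 counts in N2. It was thus low in restricted wild-type worms as well.

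**Figure D1:**
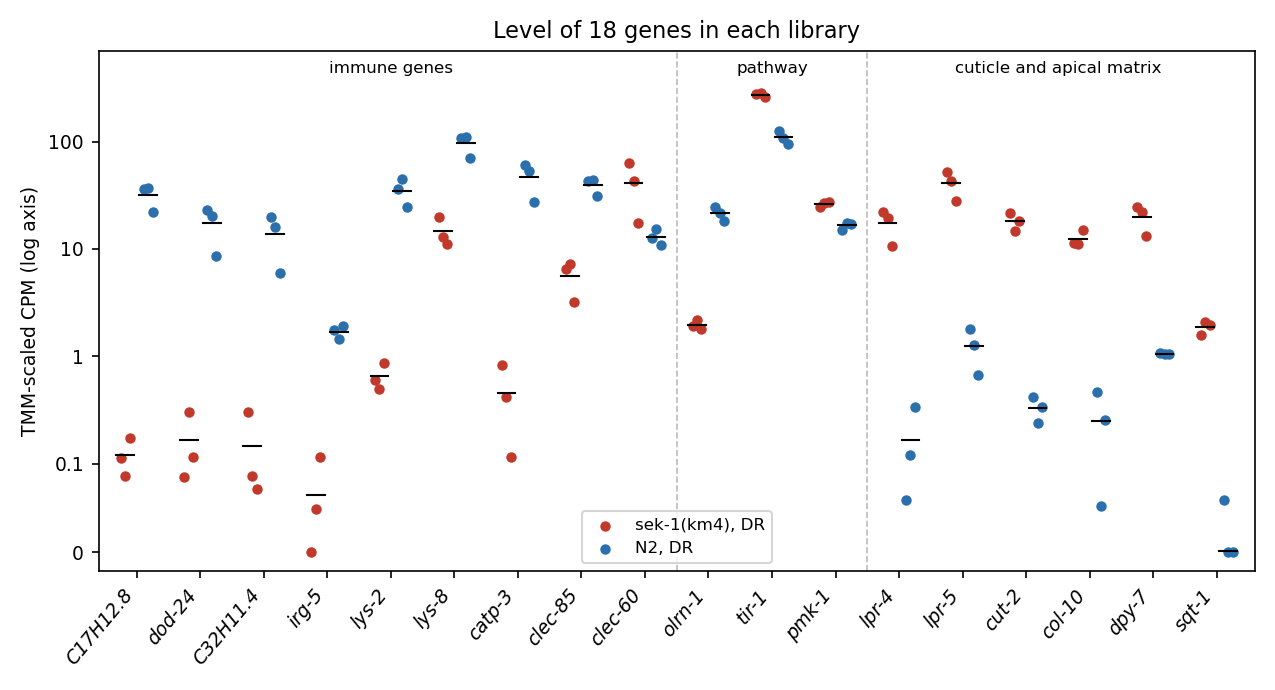
Level of 18 genes (TMM-scaled CPM, log axis, with 0 drawn at the foot) in the 3 sek-1(km4) libraries (left of each pair, red) and the 3 N2 libraries (right, blue) on DR, with bars at the means. The first 8 immune genes (lys-8 among them is not on the effector list) lie lower in the mutants and clec-60 higher; olrn-1 is lower, tir-1 and pmk-1 are higher, and the cuticle and matrix genes are higher in the mutants.

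Genes for CUB-like proteins as a family followed the effectors. Of 18 such genes 12 were tested, 10 fell and 1 rose, where 28.8% of all tested genes fell and 35.3% rose. The median log2 fold change was −3.32 against 0.12 over all tested genes. The lists share members, and 6 of the 12 passed the filter only through N2. Of the other 6, 4 fell and 1 rose.

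The C-type lectin and lysozyme families had members in both directions. Among 240 C-type lectin genes 77 were tested, 28 rose (36.4%) and 23 fell (29.9%), close to the shares of all tested genes (35.3% and 28.8%). A pair of genes both named clec-209, WBGene00018910 and WBGene00021224, fell with log2 fold changes of −6.27 ± 0.40 and −7.19 ± 0.36, and since genes of the same name may be copies that share reads, their separate values are uncertain. clec-47 (−4.95 ± 0.29, edgeR adjusted p = 1.157e-05) and clec-65 (−2.86 ± 0.18, edgeR adjusted p = 1.435e-05) also fell. Of 12 tested lysozyme genes 4 rose and 4 fell (33.3% each, also close to the shares of all tested genes). Those that rose included the invertebrate-type lysozyme gene ilys-2, with 6.34, 7.89 and 17.6 CPM in the mutants and 1.34, 1.05 and 0.506 CPM in N2 (3.45 ± 0.48), and lys-3 (2.38 ± 0.32). Of 29 tested pals genes, a family of which some members belong to the intracellular pathogen response, 14 rose and 0 fell. The pals count was 8 without N2 library 2, and 9 without mutant library 2 or mutant library 3.

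Antimicrobial peptides of the epidermis also had members in both directions. Some genes of the nlp and cnc type are known targets of the p38 cascade in the epidermis. Of 13 tested, 7 rose and 4 fell (53.8% and 30.8%), where 35.3% of all tested genes rose and 28.8% fell. The share that fell was thus close to that of all tested genes. The caenacin genes went in opposite directions: cnc-4 had 0.339, 0.268 and 0.462 CPM in the mutants and 5.28, 4.15 and 5.74 CPM in N2 (−3.84 ± 0.28), whereas cnc-7 had 3.09, 4.79 and 5.89 CPM in the mutants and 0.370, 0.362 and 0.506 CPM in N2 (3.45 ± 0.33). Likewise nlp-33 fell (−2.83 ± 0.27) and nlp-27 rose (1.78 ± 0.21). The best-studied member, nlp-29, was not called (0.52). Among 16 tested fungus-induced and related antimicrobial genes 6 rose and 7 fell (37.5% and 43.75%). The filter was passed only through N2 by 3 of them and only through the mutants by 1. Of the other 12 genes 5 rose and 4 fell. fipr-22 (−4.21 ± 0.33), fipr-23 (−4.36 ± 0.41) and fipr-24 (−3.92 ± 0.36) fell and fipr-1 (4.67 ± 0.41) rose. fipr-26 had 0 counts in all 3 mutant libraries, so that it passed the filter only through N2 and had to differ. It was at least 10.9-fold lower, taking 3 counts per library as the limit for a 0.

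The cascade's own genes changed at several levels. Of 15 pathway genes 14 were tested, 9 rose and 3 fell, where 35.3% of all tested genes rose and 28.8% fell. Upstream, the adaptor gene tir-1 had 276, 284 and 259 CPM in the mutants and 125, 109 and 94.1 CPM in N2 (1.32 ± 0.11, edgeR adjusted p = 4.210e-05), so that the levels did not overlap. The next kinase, nsy-1, was not called (0.28 ± 0.12, edgeR adjusted p = 0.0687). Downstream of SEK-1, the 3 p38 kinase genes, which lie side by side on the plus strand of chromosome IV between 8139219 and 8151266, all rose. They did so by 1.53 ± 0.14 for pmk-3, 1.16 ± 0.16 for pmk-2 and 0.66 ± 0.12 for pmk-1, in their order along the chromosome. pmk-1 had 24.7, 26.7 and 27.1 CPM in the mutants and 15.1, 17.5 and 17.2 CPM in N2.

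Among regulators, nipi-3, for a Tribbles pseudokinase, and its known target cebp-1, for a bZIP transcription factor, both rose. nipi-3 had 154, 175 and 177 CPM in the mutants and 70.2, 65.2 and 58.9 CPM in N2 (1.38 ± 0.10, edgeR adjusted p = 2.078e-05), and cebp-1 rose by 1.397 ± 0.18. The protein kinase C gene tpa-1 rose (1.08 ± 0.19), while dkf-2, for the protein kinase D that acts after it in the intestine, fell (−0.59 ± 0.14). The largest change in the cascade was in olrn-1, a gene known for its role in the fate of the AWC olfactory neurons, where it opposes this cascade. It had 1.92, 2.18 and 1.79 CPM in the mutants and 24.5, 21.7 and 18.2 CPM in N2 (−3.44 ± 0.19, edgeR adjusted p = 8.658e-06). The transcription factor gene atf-7 had a log2 fold change of −0.27 ± 0.08, not called without mutant library 2, without N2 library 2 or with library totals (−0.06). The phosphatase gene vhp-1 had 0.40 ± 0.11, not called without mutant library 1, mutant library 2 or N2 library 3. The same omissions ended the call of skn-1 (0.31 ± 0.09). With RLE scaling the value of skn-1 was 0.22 and was not called.

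Across all genes, 4826 of 13668 rose and 3934 fell, so that 64.1% were called. Changes upward were larger. Of the genes that rose, 3350 (24.5% of those tested) did so at least 2-fold and 1202 at least 4-fold, whereas 684 (5% of those tested) and 142 fell by as much. The median log2 fold change was 1.34 among those that rose and −0.67 among those that fell. The groups did not overlap for 9580 genes. The balance of directions depends on scaling: with library totals in place of TMM, 5637 genes rose and 2248 fell, so that 71.5% of calls were upward in place of 55.1%, and the median of all tested genes moved to 0.33, against 0.12 with TMM. With RLE size factors the balance turned the other way, with 4414 genes higher and 4503 lower (49.5% of calls upward), as it did with DESeq2, with 4175 and 4459 (48.4%). Of the 13668 genes, 1009 passed the filter only through the mutant libraries and 70 only through N2. Such genes, with every library of 1 strain under 0.421 CPM before TMM scaling, had to differ, and their adjusted p-values are no support of their own. Among the other 12589 genes 3858 rose and 3864 fell.

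**Figure D2:**
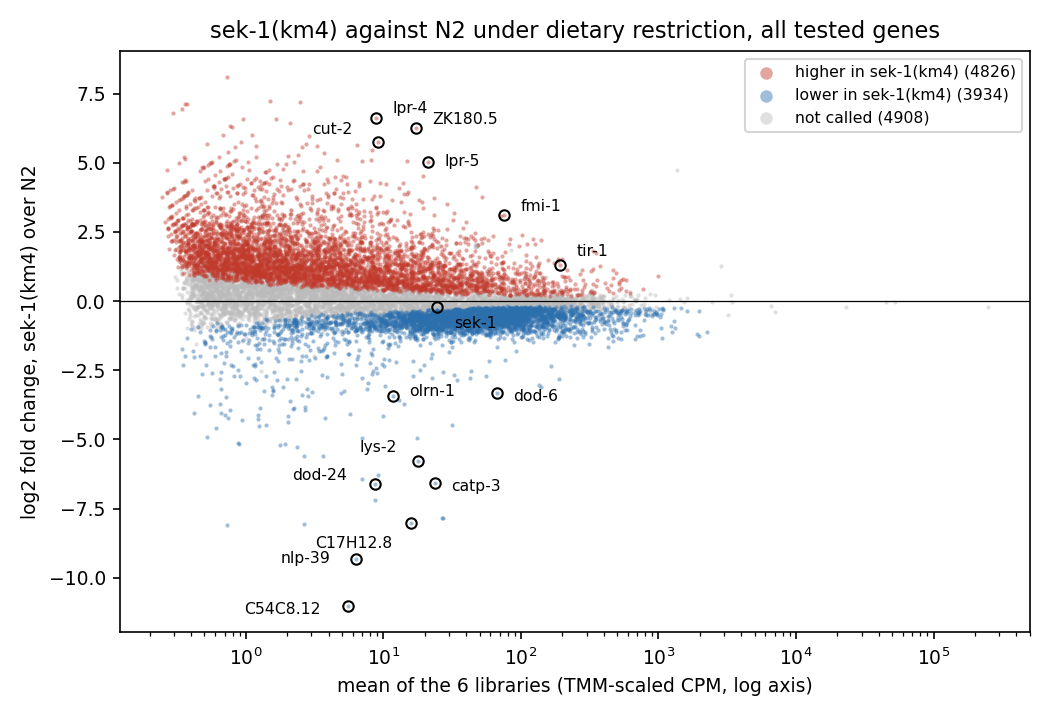
Log2 fold change of sek-1(km4) over N2 on DR against the mean level over the 6 libraries (TMM-scaled CPM, log axis) for 13668 genes, with calls at an edgeR adjusted p under 0.05. Upward changes are spread over low and moderate levels, while most of the 3934 downward calls are under 2-fold and 684 are larger, the effectors among the lowest points; values of genes near 0 in one strain, such as C54C8.12, depend on the prior count.

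Among the largest rises were genes of the cuticle and of the apical extracellular matrix that precedes it. The lipocalin-related genes lpr-4, lpr-5 and lpr-6 lie side by side on chromosome X between 11059994 and 11066811, and lipocalins of this group are known to shape the precuticle of epithelia and tubes. lpr-4 had 22.2, 19.4 and 10.6 CPM in the mutants and 0.0463, 0.121 and 0.338 CPM in N2 (6.63 ± 0.48, edgeR adjusted p = 2.524e-05). It passed the filter only through the mutants, and so had to differ. lpr-5 had 51.8, 42.8 and 28.1 CPM in the mutants and 1.80, 1.29 and 0.675 CPM in N2 (5.03 ± 0.35), and lpr-6 rose by 3.88 ± 0.18. Every mutant library was more than 10 times the highest N2 library for all 3 genes.

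The cuticlin gene cut-2, for an insoluble cuticle protein, had 21.5, 14.7 and 18.02 CPM in the mutants and 0.417, 0.241 and 0.338 CPM in N2 (5.76 ± 0.27, edgeR adjusted p = 5.092e-06). The filter was passed by cut-2 only through the mutants, so that it had to differ. Its neighbour F53F1.4 on chromosome V rose by 5.11 ± 0.25. Collagen genes col-10 (5.65 ± 0.43), col-107 (5.06 ± 0.32) and col-144 (5.09 ± 0.28) rose, with 7.77 to 18.02 CPM in the mutants and 0.0402 to 0.548 CPM in N2. dpy-7, which encodes a collagen of the annular furrows, had 24.7, 22.1 and 13.1 CPM in the mutants and 1.06, 1.05 and 1.05 CPM in N2 (4.24 ± 0.28). The groups did not overlap for any of these genes, and no N2 value was above 1.06 CPM. For cut-2 that lack of overlap is no support of its own. The same holds for any other of them with every N2 library under the filter's line of 0.421 CPM before TMM scaling.

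By list, 69 of 109 tested collagen genes rose and 9 fell (63.3% and 8.26%), of 175 members in all. Their median log2 fold change was 1.72. Of all tested genes 35.3% rose and 28.8% fell. The filter was passed only through the mutants by 30 collagen genes and only through N2 by 2. Of the other 77 collagen genes 39 rose and 7 fell, where 3858 rose and 3864 fell of all 12589 such genes. With a filter at a mean of at least 5 CPM 14 of 35 collagen genes rose and 3 fell. At that filter 2350 of all 7968 genes rose and 2299 fell. The summed level of the collagen list overlapped between strains, at 1609 to 2657 CPM in the mutants and 995 to 2484 CPM in N2. Of 26 tested cuticlin genes 23 rose and 0 fell, and without the 6 that passed only through the mutants 17 of 20 rose. Cuticlins summed to 183 to 191 CPM in the mutants and 60.9 to 81.0 CPM in N2. Of 22 tested genes of the precuticle and of moulting, a list drawn up with these results known, 18 rose and 1 fell, at a summed level of 972 to 1503 CPM in the mutants and 648 to 846 CPM in N2. Among them were the zona pellucida domain gene dex-1, at 67.9, 61.99 and 58.3 CPM in the mutants and 18.3, 17.99 and 16.24 CPM in N2 (1.84 ± 0.11), the protease inhibitor gene mlt-11 (2.25) and the leucine-rich repeat gene let-4 (2.74). Of 59 tested hedgehog-related and patched-related genes, a list also drawn up with these results known and of which members act in cuticle formation and moulting in this species, 44 rose and 5 fell. The filter was passed only through the mutants by 21 of them and only through N2 by 1, and of the other 37 genes 23 rose and 4 fell. The summed level of this list was not higher in the mutants, at 802 to 1040 CPM against 964 to 1106 CPM in N2. ptr-4 had 47.6, 34.7 and 24.0 CPM in the mutants and 3.84, 2.82 and 2.19 CPM in N2 (3.59 ± 0.30), and ptr-10 rose by 3.19 ± 0.17.

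Not every cuticle gene followed. The collagen gene col-183 fell, with 1.73, 0.728 and 0.751 CPM in the mutants and 38.9, 35.5 and 28.6 CPM in N2 (−4.96 ± 0.31, edgeR adjusted p = 1.454e-05). The collagen gene of the adult cuticle col-19 was not called (0.23). Neither were the moulting gene mlt-10 (0.09) or the adult strut collagen gene bli-1 (0.48). In contrast, furrow collagen genes dpy-2 (3.24), dpy-3 (3.00), dpy-8 (4.12) and dpy-10 (2.25) rose with dpy-7.

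**Figure D3:**
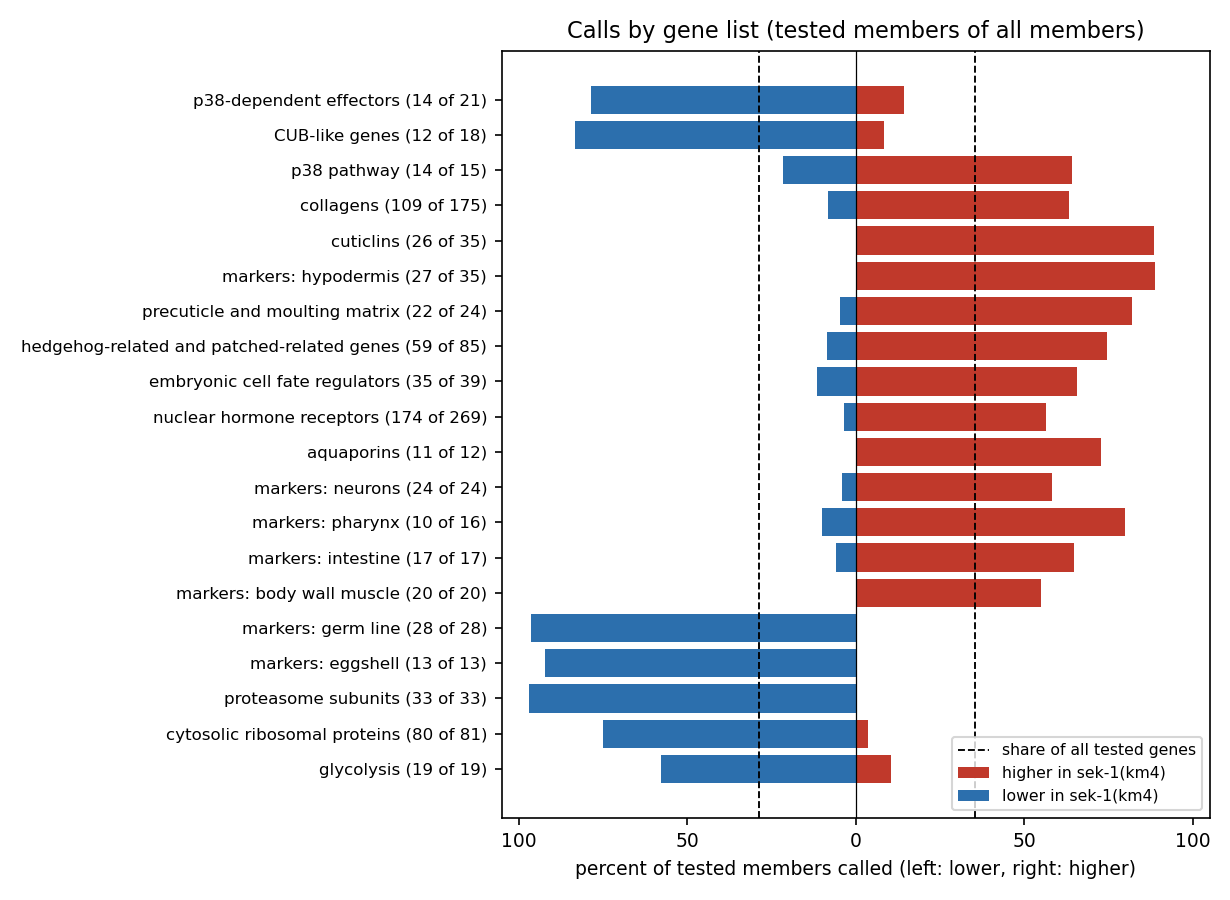
Percent of tested members of 20 gene lists that were lower (left, blue) or higher (right, red) in sek-1(km4) than N2 on DR, with dashed lines at the shares of all tested genes (28.8% lower, 35.3% higher) and the tested and total members beside each name. Effectors, germ line, eggshell and proteasome lists lie to the left and cuticle, epidermal, neuronal and muscle lists to the right; members that passed the filter through 1 strain only are included.

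Germ line markers were lower in the mutants, and the lists of somatic cell types had more members higher than lower. In whole animals fewer cells of a type and less RNA per cell cannot be told apart. All 28 germ line markers were tested, and 27 fell and 0 rose, where 28.8% of all tested genes fell and 35.3% rose. Their median log2 fold change was −0.93. The P granule gene pgl-3 had 107, 85.5 and 82.1 CPM in the mutants and 220, 222 and 216 CPM in N2 (−1.26 ± 0.11, edgeR adjusted p = 4.650e-05). puf-11, which encodes an RNA-binding protein of the germ line, fell by 1.32 ± 0.11 on the log2 scale, and car-1, for a component of germ line RNA granules, fell by 1.27 ± 0.11. Only the synaptonemal complex gene syp-1 was not called (0.04). The summed level of the markers was 5860 to 7404 CPM in the mutants and 12575 to 12761 CPM in N2.

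Eggshell genes, which are transcribed in oocytes, changed with them. Of 13 tested, 12 fell and 0 rose (92.3% fell, against 28.8% of all tested genes). The exception was the kinase gene mbk-2 (−0.23). cpg-3, for a chondroitin proteoglycan of the eggshell, had 345, 296 and 253 CPM in the mutants and 741, 766 and 784 CPM in N2 (−1.36 ± 0.12, edgeR adjusted p = 5.266e-05). The oocyte surface gene egg-1 fell by 1.32 ± 0.12. Of 37 sperm markers, only 2 passed the filter, of which the sperm membrane fusion gene fer-1 rose (1.94 ± 0.21), and 2 had no count in any of the 6 libraries. The 6 vitellogenin genes, for yolk proteins made in the intestine, were not called, at log2 fold changes between −0.51 and 0.24. With a replicate block 4 of the 6 were lower, and without N2 library 3 or with the length offset 1 was.

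Epidermal markers were mostly higher. Of 35 hypodermis markers 27 were tested, 24 rose and 0 fell, where 35.3% of all tested genes rose and 28.8% fell. Of the 14 that did not pass the filter only through the mutants 11 rose. Among all 12589 genes that did not pass through 1 strain only, 3858 rose. Several of the hypodermis markers are collagen and hedgehog-related genes already described. wrt-2, which passed the filter only through the mutants, had 5.51, 4.87 and 2.71 CPM in the mutants and 0.0926, 0.201 and 0.0844 CPM in N2 (5.05 ± 0.44). Their summed level was 509 to 602 CPM in the mutants and 266 to 325 CPM in N2.

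Of 24 neuronal markers 14 rose and 1 fell (58.3% and 4.17%), where 35.3% of all tested genes rose and 28.8% fell. unc-10, for the active zone protein RIM, had 10.2, 13.1 and 12.01 CPM in the mutants and 2.22, 2.21 and 1.603 CPM in N2 (2.54 ± 0.20), and the synaptic vesicle gene rab-3 rose by 2.27 ± 0.23. The summed level of the list was 470 to 522 CPM in the mutants and 343 to 398 CPM in N2. Some neuronal genes were not called, among them snb-1 (0.13) and unc-119 (0.31). Of 10 tested pharynx markers 8 rose and 1 fell (80% and 10%). Of 20 body wall muscle markers 11 rose (55%) and 0 fell, with 9 not called. The lower count of body wall muscle was 5 without N2 library 3, 3 without both libraries numbered 3, 2 with RLE size factors and 1 without mutant library 1. The 1 lower pharynx marker was not called without mutant library 1, mutant library 3, N2 library 1 or N2 library 2. Of 17 intestine markers 11 rose and 1 fell (64.7% and 5.88%). Those that rose included the GATA factor gene elt-2 (1.28 ± 0.28) and the peptide transporter gene pept-1 (2.01 ± 0.54). The esterase gene ges-1 had a lower level (−0.88 ± 0.31, edgeR adjusted p = 0.0324). Summed levels of the intestine list overlapped, at 1019 to 2418 CPM in the mutants and 737 to 1355 CPM in N2. No intestine marker was lower without mutant library 2, mutant library 3, N2 library 1 or N2 library 2, and 2 were without mutant library 1. No marker of these somatic lists or of the germ line was at 0 in all libraries of a strain. The part that cell composition has in the gene groups described here was not tested.

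Regulators of embryonic cell fate, a list drawn up with these results known, were more often higher than lower. Of 35 tested, 23 rose and 4 fell, where 35.3% of all tested genes rose and 28.8% fell. The filter was passed only through the mutants by 5 of them, and of the other 30 genes 18 rose and 4 fell. The POU homeobox gene unc-86, which specifies neurons, had 11.7, 12.5 and 13.3 CPM in the mutants and 0.879, 0.724 and 0.506 CPM in N2 (4.15 ± 0.23, edgeR adjusted p = 8.868e-06). The Hox gene mab-5 rose by 1.99 ± 0.22, the epidermal receptor gene nhr-25 by 1.63 ± 0.16 and the pharynx factor gene pha-4 by 1.46 ± 0.24. The maternal germ line regulator gene pie-1 fell (−0.74 ± 0.08), as did pal-1 (−0.71). Nuclear hormone receptor genes were more often higher as well, with 98 of 174 tested rising and 6 falling, of 269 in all. Without the 11 that passed the filter through 1 strain only, 89 of 163 rose and 5 fell. nhr-3 had 30.7, 29.5 and 24.6 CPM in the mutants and 4.26, 3.22 and 2.07 CPM in N2 (3.15 ± 0.25). fmi-1, for a Flamingo cadherin of axon development, was among the 3 genes with the smallest adjusted p upward, at 139, 143 and 125 CPM in the mutants and 18.1, 15.4 and 13.1 CPM in N2 (3.12 ± 0.13, edgeR adjusted p = 3.466e-06). The other 2 were F41F3.3 (5.48 ± 0.21) and ZK180.5 (6.25 ± 0.24), for which no role is given here.

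Beside the effectors, the largest falls were in a few small genes. C54C8.12, nlp-39 and the lectin gene clec-11 lie together on chromosome I between 12456926 and 12461895. C54C8.12 had 0 counts in all 3 mutant libraries and 197, 262 and 326 counts in N2, at least 83.3-fold lower. The neuropeptide-like gene nlp-39 had 1, 0 and 0 counts in the mutants and 216, 269 and 402 counts in N2, a ratio of 0.00113 (95% counting interval 2.860e-05 to 0.00632). clec-11 had 2, 4 and 3 counts in the mutants and 11, 28 and 20 counts in N2. C54C8.12, nlp-39 and clec-11 all passed the filter only through N2, and so had to differ. Genes on either side, lys-9 and gly-15, had at most 3 counts in any DR library, so that nothing can be read from them. The loss was also present on full food, where nlp-39 had 0, 2 and 1 counts in the mutants and 307, 189 and 580 counts in N2.

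C08F11.12 and Y45F10C.2 on chromosome IV had nearly equal values, with log2 fold changes of −7.83 ± 0.28 and −7.85 ± 0.31 (edgeR adjusted p = 3.065e-06 for C08F11.12 and for Y45F10C.2). Genes with such equal values may be copies that share reads, so that their separate values are uncertain. C08F11.12 had 0.226, 0.230 and 0.231 CPM in the mutants and 44.6, 46.1 and 69.6 CPM in N2. C08F11.12 passed the filter only through N2, and so had to differ, so that its adjusted p is no support of its own. Given the nearly equal values, that of Y45F10C.2 is not taken as support either. dod-6, which is reported to rise when insulin signalling is low, had 13.7, 11.2 and 11.2 CPM in the mutants and 115, 124 and 125 CPM in N2 (−3.33 ± 0.11, edgeR adjusted p = 3.065e-06). far-3, for a fatty acid and retinol binding protein, fell (−4.48 ± 0.30), while its relative far-4 rose (4.22 ± 0.41). In the opposite direction, 5 genes had 0 counts in all N2 libraries, namely C02E7.7, nhr-218, T06G6.6, nhr-264 and the pseudogene WBGene00014759. All 5 passed the filter only through the mutants, and so had to differ. They were under 2 CPM in the mutants, and C02E7.7, at 1.81, 1.23 and 1.33 CPM, was at least 11.3-fold higher.

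Lists of metabolism and proteostasis differed in direction, where 35.3% of all tested genes rose and 28.8% fell. Of 19 glycolysis genes 11 fell and 2 rose, the higher count being 1 without mutant library 2, mutant library 3, N2 library 1 or N2 library 2. pgk-1, for phosphoglycerate kinase, had 68.4, 57.7 and 57.2 CPM in the mutants and 128, 121 and 124 CPM in N2 (−1.02 ± 0.09, edgeR adjusted p = 5.787e-05). The glycogen synthase gene gsy-1 fell by 1.395 ± 0.10 and the glycogen phosphorylase gene pygl-1 by 1.38 ± 0.19. Of the 7 propionate shunt genes 4 fell. Among them acdh-1, the acyl-CoA dehydrogenase that reports on the shunt, had 16.03, 12.7 and 3.75 CPM in the mutants and 83.5, 85.8 and 55.9 CPM in N2 (−2.77 ± 0.49, edgeR adjusted p = 0.00314). In fat metabolism the thiolase gene kat-1 fell (−1.11 ± 0.11), while the fatty acid synthase gene fasn-1 rose, at 734, 632 and 563 CPM in the mutants and 384, 302 and 200 CPM in N2 (1.12 ± 0.22). Over the whole fatty acid oxidation list 13 of 30 tested genes rose and 8 fell (43.3% and 26.7%), and over fatty acid synthesis and desaturation 7 of 22 rose and 5 fell (31.8% and 22.7%). Of 16 tested lipid binding protein genes 12 rose and 3 fell.

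Subunits of the proteasome fell almost as one, 32 of 33, but each by little, with a median of −0.51. The alpha subunit gene pas-6 had 106, 107 and 110 CPM in the mutants and 167, 177 and 175 CPM in N2 (−0.68 ± 0.07, edgeR adjusted p = 1.025e-04). With library totals in place of TMM 17 subunits fell, and 19 in a fit of all 12 libraries. Of 80 tested cytosolic ribosomal protein genes 60 fell and 3 rose, with a median of −0.37. That count was 15 with library totals, 27 with an offset for transcript length and 4 in the fit of all 12 libraries. Of 22 genes of the unfolded protein response 8 rose and 5 fell (36.4% and 22.7%, against 35.3% and 28.8% of all tested genes), with a median of 0.08. Among them the mitochondrial chaperone genes hsp-60 (196, 149 and 131 CPM in the mutants and 504, 488 and 414 CPM in N2, −1.56 ± 0.15) and hsp-6 (−0.83 ± 0.11) fell. Of 16 tested cytosolic heat shock genes 6 rose and 3 fell (37.5% and 18.75%), and of 47 autophagy and vacuolar ATPase genes 13 rose and 13 fell (27.7% each). In the list of class I DAF-16 targets 9 of 18 tested fell and 2 rose. Among class II targets, reported to fall when insulin signalling is low, 6 of 8 tested rose, including the insulin-like gene ins-7 (8.86, 6.25 and 7.16 CPM in the mutants and 0.231, 0.644 and 0.717 CPM in N2, 3.77 ± 0.34), and dod-24 fell. Of the 4 members not tested, dod-17 had 0, 1 and 1 counts in the mutants and 18, 42 and 10 counts in N2, dod-22 had 2, 0 and 1 counts in the mutants and 7, 7 and 5 counts in N2, and dod-21 had 0, 1 and 0 counts in the mutants and 2, 6 and 1 counts in N2. The fourth, dod-20, had 13, 18 and 3 counts in the mutants and 0, 8 and 0 counts in N2. The lower count was 2 without any 1 of the mutant libraries or without N2 library 3, and 3 in the fit of all 12 libraries.

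Of 11 tested aquaporin genes 8 rose and 0 fell. The aquaporin gene aqp-8, expressed in the excretory system, had 27.4, 26.7 and 28.6 CPM in the mutants and 2.08, 2.05 and 1.52 CPM in N2 (3.87 ± 0.17, edgeR adjusted p = 4.334e-06), and aqp-2 had 197, 204 and 180 CPM in the mutants and 64.003, 66.3 and 62.7 CPM in N2 (1.59 ± 0.08). The aquaporin count was 5 without N2 library 2, and without mutant library 2 or mutant library 3. Of 28 regulators reported for lifespan under restriction 7 rose and 9 fell (25% and 32.1%, against 35.3% and 28.8% of all tested genes). The TFEB gene hlh-30 rose (0.78 ± 0.13), as did crtc-1 (0.84 ± 0.15), for a CREB-regulated coactivator, and the Myc-like factor gene mxl-2 fell (−0.56 ± 0.10).

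The calls were not spread evenly over the chromosomes. Chromosome X, which carries sek-1, had 1955 tested genes, of which 59.0% rose and 6.85% fell. On the autosomes 25.7% to 37.4% rose and 26.2% to 37.7% fell. X thus held 23.9% of all genes that rose and 3.41% of those that fell, with 14.3% of the genes tested. The median log2 fold change on X was 0.71, whereas it lay between −0.16 and 0.32 on the autosomes. Within 1 Mb of sek-1 63.1% of 255 genes rose, against 58.4% of 1700 on the remainder of X, a difference that was not tested. Germ line markers fell in the same libraries, and their part in the X values was not tested.

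**Figure D4:**
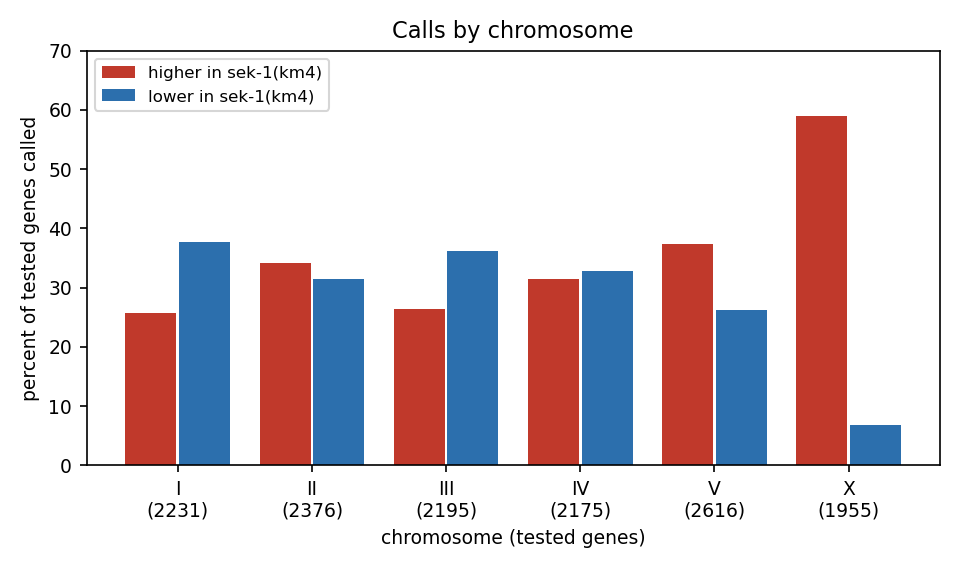
Percent of tested genes on each chromosome that were higher (left bar, red) or lower (right bar, blue) in sek-1(km4) than N2 on DR. On chromosome X 59.0% were higher and 6.85% lower, while on the autosomes at most 37.4% were higher.

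The same strains were also compared on full food, in libraries that share no sample with the DR libraries. On AL 12.7% of 14611 tested genes rose and 4.72% fell, and without N2_AL library 3 23.3% of 14847 rose and 13.5% fell. Of the genes that rose at least 2-fold on DR, 92.0% had the same sign on AL, and of those that fell at least 2-fold 98.5% did, against 80.8% of all tested genes. N2_AL library 3 had the fewest counts of the 12 (13673987) and reads in 24108 genes, against 18885 and 17856 genes in the other N2_AL libraries. The number of genes was not particular to that library. Mutant AL library 2, which was kept, had reads in 24417 genes, against 20462 and 21032 in the other mutant AL libraries. Without N2_AL library 3 the shares of the same sign were 98.4%, 97.2% and 86.4%. Across genes, which are not replicates, the log2 fold changes on both diets correlated at r = 0.76, and at 0.88 without that library. C17H12.8 had a log2 fold change of −8.04 on DR and −8.95 on AL, lys-2 −5.77 and −5.73, lpr-4 6.63 and 7.34, and cut-2 5.76 and 6.51.

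Tested directly, the genotype difference on DR minus that on AL passed the threshold for 0 of 14611 genes (edgeR on all 12 libraries, 1302 genes at an unadjusted p under 0.05, smallest adjusted p = 0.190). DESeq2 called 28 genes more positive and 22 more negative on DR. Without N2_AL library 3, 9 genes were more positive and 4 more negative, 0.0606% and 0.0269% of 14847 tested. The following were chosen after their values were seen. Lectin genes clec-52 and clec-61, the cytochrome P450 gene cyp-35B1 and lst-5 were the 4 more negative ones. clec-52 had 12.04, 7.72 and 6.31 CPM in mutants and 26.5, 31.9 and 21.1 CPM in N2 on DR, but 8.36, 7.27 and 6.83 CPM in mutants and 5.05, 5.09 and 4.55 CPM in N2 on AL. For clec-52 the mutant values were all below the N2 values on DR and all above them on AL, where the difference was not called (0.61, edgeR adjusted p = 0.108, and 0.0964 without N2_AL library 3). Its interaction on the log2 scale was −2.22 (adjusted p = 0.0301 by edgeR without N2_AL library 3, 0.190 with it). Of the more positive ones, the heme transporter gene hrg-1 had 10.6, 9.98 and 10.41 CPM in mutants and 2.07, 2.37 and 2.07 CPM in N2 on DR, against 3.67, 3.15 and 4.42 CPM in mutants and 2.89, 2.12 and 3.25 CPM in N2 on AL. K08D8.4 was lower in the mutants on both diets, with 0.613, 0.682 and 0.593 CPM in mutants and 2.38, 2.37 and 1.79 CPM in N2 on DR, against 0.141, 0.231 and 0.301 CPM in mutants and 7.59, 11.83 and 4.27 CPM in N2 on AL.

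**Figure D5:**
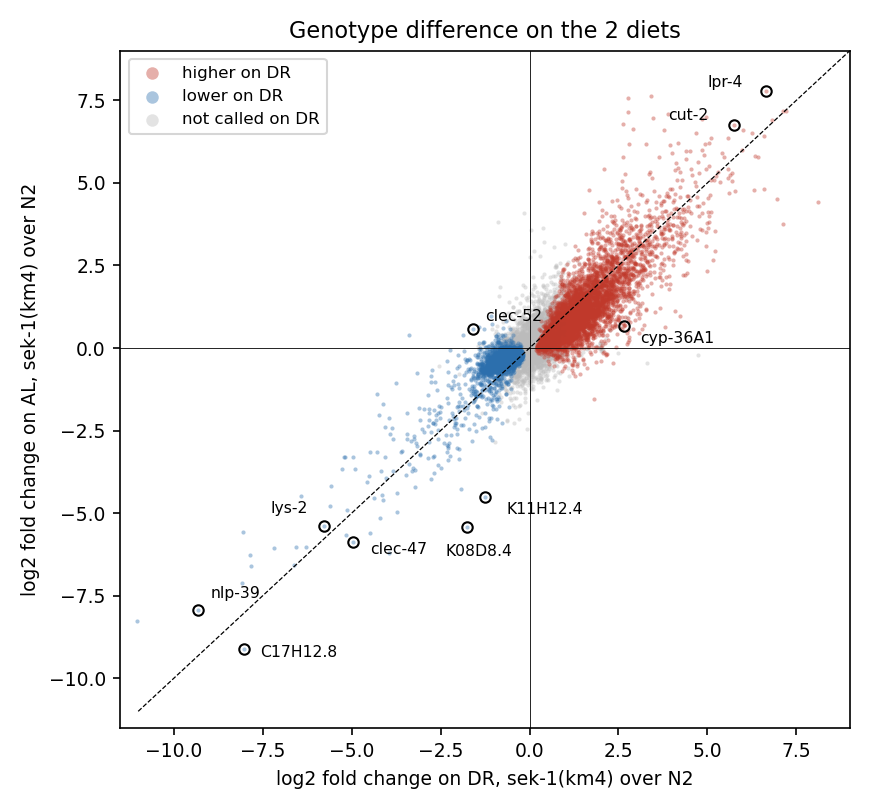
Log2 fold change of sek-1(km4) over N2 on DR (horizontal axis, fit of the 6 DR libraries) and on AL (vertical axis, fit without N2_AL library 3) for the genes tested on DR, coloured by their call on DR, with a dashed line at equality. Points lie along the line (r = 0.88 across genes), with C17H12.8 and lys-2 low and lpr-4 and cut-2 high on both diets, and clec-52, K08D8.4, K11H12.4 and cyp-36A1 off it.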

How the data were processed

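The authors deposited raw read counts per gene and library. The submitters' processing notes name featureCounts and Subread. Which aligner, genome build, annotation, strand setting and versions they used is not given in the sources used here, so reads of overlapping or antisense genes cannot be told apart. Of 46748 identifiers 43693 had a symbol or sequence name and 46449 were in the Ensembl annotation of WBcel235, which supplied positions and lengths. The members, lists and rules were chosen with earlier results of these data known.

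The 6 DR libraries were fitted alone in edgeR 4.0.16 (R 4.3.3), as raw counts with TMM scaling, filterByExpr (minimum count 10), a quasi-likelihood fit with robust dispersion and Benjamini-Hochberg adjustment over all 13668 tested genes, with a threshold of 0.05. No pair of the 6 libraries was identical. Depth was 17704397 to 26893867 counts per library, and the biological coefficient of variation was 16.8%. Standard errors are the absolute log2 fold change over the square root of F, and ± after a fold change is that SE. The difference between diets was fitted on 12 libraries. Alternatives were RLE scaling, DESeq2 1.42.0, filters, a replicate block, all 12 libraries, rRNA removal, non-robust dispersion, a 1.5-fold test, a length offset and each library left out. Library totals and leaving out both libraries numbered 3 were added after seeing the data. The method was tested on simulated counts in which few genes were changed, equally in both directions. That cannot test the scaling where 64.1% of genes are called, as here. Named genes were the pathway list, the 12 largest changes each way among genes of at least 5 CPM with groups apart, up to 4 members per list by adjusted p, genes at 0 in 1 strain and the 3 smallest adjusted p each way. Other named members are given as examples chosen after their values were seen. Promoter motifs were not analysed here.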

Additional observations from a re-analysis of the deposited data

How the results depend on the processing

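Of the 227 named genes, 3923 of 4024 recomputed values kept their direction and side of the threshold, 91 lost and 8 gained a call, and 2 turned: with the length offset the nsy-1 log2 fold change was -2.118e-04 and the unc-22 log2 fold change −0.082 (neither called). The test against a 1.5-fold change lost 38 calls and the fit of all 12 libraries 19. Of 2016 list counts, 307 moved by over 1.5 times. sek-1 passed the threshold with RLE scaling (−0.32, adjusted p = 0.0472), DESeq2 (−0.32, adjusted p = 0.0373) and no filter (−0.37, edgeR adjusted p = 0.0439), and lay between −0.34 and −0.17 with a library left out. The genes that rose and fell numbered 2350 and 2299 at a mean of at least 5 CPM, 3001 and 1069 against a 1.5-fold change, 5637 and 2248 with library totals, and 3631 and 2137 in the fit of 12 libraries. With 1 library left out they ranged from 3928 to 4730 and from 3258 to 4264. The cause of these moves was not tested, except that fewer genes (7968) were tested at 5 CPM. Between strains, the deviations of same-numbered libraries correlated at r = 0.183, 0.05 and 0.28, and those of differently numbered ones at −0.27 to 0.179. Whether the numbers mark a shared batch cannot be told from these values, and the main fit does not pair the libraries. With a replicate block 5159 genes rose and 4398 fell. For the difference between diets the block gave 0 more positive and 1 more negative (WBGene00016875), DESeq2 28 and 22, and leaving out libraries 0 to 9 and 0 to 4, where all but the omission of N2_AL library 3 gave 0. Histone genes, 6 higher and 3 lower of 71, had 19 lower without both libraries numbered 3 and 18 without mutant library 3. Counts of about 3 per library limit what can be said of genes under 0.173 CPM. The planned search for promoter motifs was not run.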

Other observations

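Some further lists gave these counts, to be read beside all tested genes, of which 35.3% rose and 28.8% fell. Of 45 tested cytochrome P450 genes 16 rose and 12 fell (35.6% and 26.7%, close to those shares). cyp-36A1, for a cytochrome P450, had 8.82, 7.74 and 9.01 CPM in mutants and 1.71, 1.29 and 1.097 CPM in N2 on DR (2.64 ± 0.22, edgeR adjusted p = 3.924e-05). Of 52 tested UDP-glucuronosyltransferase genes 17 rose and 16 fell (32.7% and 30.8%, also close to the shares of all tested genes), and of 29 tested glutathione S-transferase genes 13 rose and 2 fell. Among 22 tested cathepsin genes 10 fell and 5 rose, with the aspartyl protease gene asp-5 at 41.9, 25.4 and 20.2 CPM in mutants and 262, 281 and 175 CPM in N2 (−3.03 ± 0.32). Neuropeptide genes were divided, with 22 of 84 tested rising and 12 falling. Of 23 tested saposin-like genes 6 rose and 2 fell, of 20 tested insulin-like genes 10 rose and 2 fell, of 22 tested astacin genes 14 rose and 3 fell, and of 31 oxidative phosphorylation genes 4 rose and 16 fell (1 with library totals, 10 without mutant library 2). The filter was passed only through the mutants by 9 astacin genes and 7 insulin-like genes.

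Of 14 genes of the other MAP kinase cascades 9 rose and 4 fell. dlk-1, for the MAP kinase kinase kinase of the neuronal PMK-3 cascade, had 45.1, 45.4 and 49.03 CPM in mutants and 18.4, 14.3 and 8.94 CPM in N2 (1.74 ± 0.23, edgeR adjusted p = 2.628e-04), and mlk-1, for a related kinase, rose by 1.498 ± 0.14. The ERK gene mpk-1 fell (−0.68 ± 0.09), with all mutant libraries below all N2 libraries.

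Of 30 DNA replication genes 16 fell and 1 rose, 7 falling with library totals, and orc-1 had 99.3, 85.7 and 85.99 CPM in mutants and 159, 172 and 175 CPM in N2 (−0.90 ± 0.09). Of 12 hypoxia and hydrogen sulfide genes 3 rose and 1 fell, and of 24 tested methionine, folate and transsulfuration genes 6 rose and 8 fell. The hydrogen sulfide response gene cysl-1 rose, at 13.3, 15.2 and 17.6 CPM in mutants and 3.84, 3.86 and 1.98 CPM in N2 (2.24 ± 0.26), and cth-1, for cystathionine gamma-lyase, rose by 1.70 ± 0.22.

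F09G2.8 on chromosome V had 80.02, 7668 and 80.9 CPM in the mutants and 93.4, 91.4 and 106.5 CPM in N2. Only mutant library 2 was high, and the gene was not called (edgeR adjusted p = 0.116).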
